A study of Mus musculus with 18 samples.

Results

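The comparison described here is between pancreata of mice heterozygous for an Otub2 knockout (HET) and of wild-type mice (WT), restricted to libraries in which olfactory and vomeronasal receptor genes took more than 0.1% of all counts. The libraries were chosen by that share alone: 3 of the 5 HET pancreas libraries passed it, and all 3 WT pancreas libraries lay above it, giving 6 of the 18 libraries of the series (11 of pancreas, 7 of liver). The share was 0.422%, 0.233% and 0.520% in HET 9, HET 10 and HET 15, against 0.695%, 0.353% and 0.599% in WT 11, WT 12 and WT 16. HET 10 lay nearest the cut from above and HET 16, with 0.0252%, nearest from below, while HET 11 had 0.0147%. In the 3 pancreas libraries of homozygous knockouts (HOM) it lay between 0.438% and 0.616%, and in the livers it did not exceed 0.0111%. These values are a description of how the libraries were chosen and carry no test.

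HET 9 came from a female and HET 10 and HET 15 from males, all with the genotype OTUB2 +/-. WT 16 came from a female and WT 11 and WT 12 from males, all with the genotype OTUB2 +/+. Ages, the strain, the part of the gene that was deleted and whether each library is a separate animal are not stated in the labels, so the p-values measure the spread between these samples. The animals were otherwise kept in normal conditions. RNA of whole organs was read by a bulk form of MARS-seq, which counts the 3′ ends of transcripts. In such bulk samples, fewer cells of a type and less RNA per cell cannot be told apart.

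Otub2 encodes a deubiquitinase of the OTU family, an enzyme that removes ubiquitin chains from other proteins and is known as a brake on NF-κB signalling downstream of TRAF proteins. The pancreas is mostly acinar tissue, whose mRNA is dominated by a small set of digestive enzymes, with ducts, blood vessels, fibroblasts and the hormone-producing islets making up the rest. Olfactory and vomeronasal receptors are odour and pheromone receptors of sensory neurons and are not known for a role in acinar tissue.

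The 6 libraries were shallow. They held 49502, 78090 and 162609 counts in HET 9, HET 10 and HET 15, against 81200, 63483 and 188496 in WT 11, WT 12 and WT 16. A count was seen for 3789, 4460 and 6183 genes in the HET libraries, against 4805, 4198 and 7900 in the WT libraries. Of the 14559 genes with a count in any of the 6, 7381 (50.7%) had one in a single library and 764 (5.25%) in all 6. Few acinar markers were detected in these pancreas libraries: 9 of 32 had any count in the 6 libraries, and Prss2 and Cel, an abundant trypsinogen and the bile salt-activated lipase, were at 0 in all of them. Of the islet markers, 5 of 15 had a count, and Ins2 and Gcg, the genes of the main insulin and of glucagon, were at 0 in all 6. HET 11 and HET 16, by contrast, held 1326541 and 670588 counts, of which acinar genes took 16.5% and 6.30%.

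Otub2 itself (chr12:103388682-103406350, plus strand, mm10) had 0 counts in each of HET 9, HET 10 and HET 15, against 3, 4 and 3 counts in WT 11, WT 12 and WT 16. The groups did not overlap, but they differed by 10 counts in all. On a scale relative to depth (CPM, a count divided by the total of its library and multiplied by 1000000) Otub2 stood at 0 in HET, where 3 counts over the group would make 10.3 CPM, against 38.6 ± 23.6 CPM in WT (SD, n = 3 each). Over the summed WT counts the level was 30.0 CPM, so that Otub2 was at least 2.90-fold lower in HET. The two-sided exact permutation test over the 6 libraries gave p = 0.1, the smallest value that 3 against 3 allows. A gene with counts in all 3 WT and in no HET library was not rare: 106 of 14559 genes (0.728%) had that pattern, and 92 of them had more counts than Otub2. The reverse, counts in all 3 HET and in no WT library, was seen for 58 genes (0.398%). In the HOM libraries 1, 0 and 0 counts were seen. Since it is not known whether the counted 3′ end lies in the deleted part, these counts cannot check the labels. The paralog Otub1, an OTU deubiquitinase that most cells express, had 0 counts in each HET library and 1, 1 and 0 in WT 11, WT 12 and WT 16, so no fold is given. HET 11 and HET 16 held 163 and 117 counts of it. All 16 listed OTU-family genes together, of which 6 had a count, gave 6 counts in HET and 24 in WT, 10 of the WT counts from Otub2. Without Otub2 they stood at 40.4, 51.2 and 0 CPM in HET 9, HET 10 and HET 15, against 24.6, 31.5 and 53.1 CPM in WT 11, WT 12 and WT 16, and the groups overlapped.

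The results below turn on a pair of repeat-like transcript families, whose annotated sequences are shown here. Gm10800, annotated as a predicted protein-coding gene on chromosome 2, is 1 of 13 annotated genes, 10 of them on chromosome 9, that share stretches of 16 bases of its sequence. As background, these predicted genes resemble the mouse major satellite, the repeated DNA of pericentromeric heterochromatin. The first bases of its transcript and of that of Gm21738 on chromosome 14 are shown 5′ to 3′, with capitals for 16-base stretches also present in the chromosome 9 genes of the family. Gm23935 is a short gene annotated as a miRNA on chromosome 16, and its capitals mark stretches shared with its near copies. All are from GENCODE release M21 on mm10, at chr2:98666547-98667301 (minus strand), chr14:19415857-19418930 (minus strand) and chr16:11144125-11144181 (plus strand).
Gm10800: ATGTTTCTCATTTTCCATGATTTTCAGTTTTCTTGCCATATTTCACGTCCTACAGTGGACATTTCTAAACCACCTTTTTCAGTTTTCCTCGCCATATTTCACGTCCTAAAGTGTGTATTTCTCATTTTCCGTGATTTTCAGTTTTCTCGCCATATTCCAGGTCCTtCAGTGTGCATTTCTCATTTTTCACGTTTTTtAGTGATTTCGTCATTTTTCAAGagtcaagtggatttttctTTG
Gm21738: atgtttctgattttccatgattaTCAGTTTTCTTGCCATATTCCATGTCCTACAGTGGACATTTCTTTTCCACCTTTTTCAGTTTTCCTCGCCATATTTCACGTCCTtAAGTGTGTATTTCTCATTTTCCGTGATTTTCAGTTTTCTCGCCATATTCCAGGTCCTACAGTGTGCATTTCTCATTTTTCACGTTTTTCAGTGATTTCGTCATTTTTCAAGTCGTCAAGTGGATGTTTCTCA
Gm23935: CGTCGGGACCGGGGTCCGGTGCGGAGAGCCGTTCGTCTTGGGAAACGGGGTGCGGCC
In both satellite-like transcripts most of the shown stretch is in capitals. Gm23935 is in capitals throughout, because Gm24245 on chromosome 4 and Gm24270 on chromosome 9 carry the same 57 bases. Reads from such copies could be assigned to any of them, so the counts of single members are uncertain.

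The edgeR quasi-likelihood test, with sex as a covariate and Benjamini-Hochberg adjustment, was run on the 1671 genes that passed the filter on low counts. It called 3 of them at an adjusted p under 0.05 (0.180%): Gm23935 and Luc7l3 rose (0.120%) and Gm10800 fell (0.0598%) in HET. DESeq2 called 12 (0.718%). An unadjusted p under 0.05 was reached by 49 genes (2.93%). The log2 fold change was below 0 for 886 genes (53.0%) and above 0 for 785 (47.0%), with a median over all genes of −0.14. The biological coefficient of variation was 130%, from 3 residual degrees of freedom, so that differences had to be very large to be called.

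**Figure D1:**
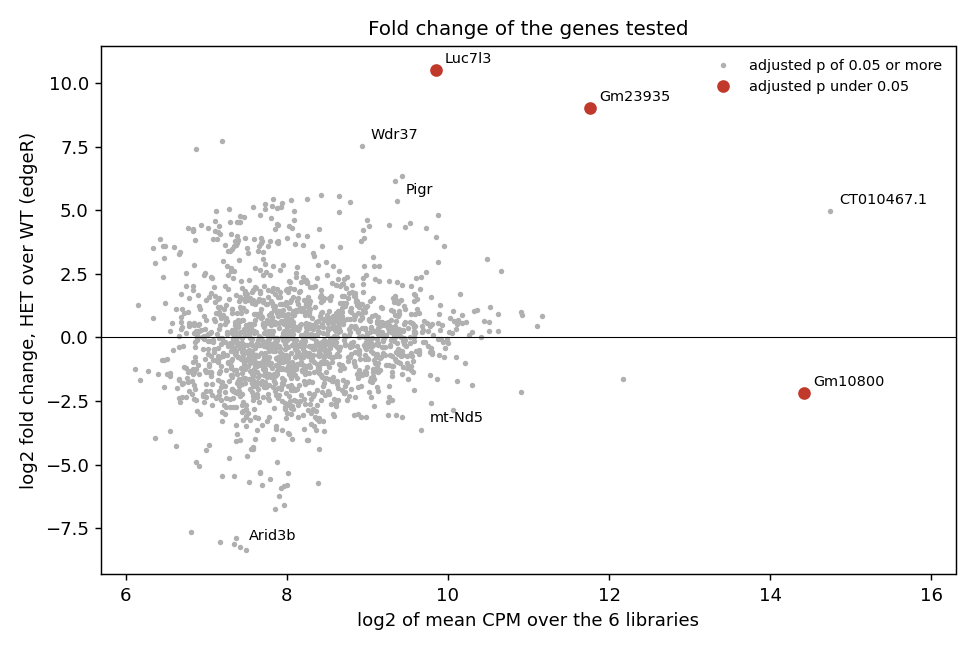
Log2 fold change of HET over WT from edgeR (vertical axis) against the log2 of the mean CPM over the 6 libraries (horizontal axis) for the 1671 genes tested, with the 3 called genes in red. Gm23935 and Luc7l3 stand above the cloud and Gm10800 at the far right below 0; for genes at 0 in a whole group, such as Luc7l3 and Arid3b, the fitted value depends on a small prior count and is not a measured fold.

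Gm23935 had 260, 1190 and 67 counts in HET 9, HET 10 and HET 15, against 1 count in each of WT 11, WT 12 and WT 16. The groups were far apart, at 6968 ± 7561 CPM in HET and 11.1 ± 5.3 CPM in WT. Over the summed libraries the ratio was 581, with a 95% exact interval of 198 to 2818 that covers counting error only. The edgeR log2 fold change was 9.03 ± 0.97 (SE, adjusted p = 6.59e-09), and the adjusted p stayed under 0.05 in 14 of 18 alternative settings. It did not in males only (0.875), with all 5 HET libraries (0.590), without WT 16 (0.731) or with the cut on the receptor share at 0.5% and no sex covariate (0.913), a setting chosen after seeing the data that leaves HET 15, WT 11 and WT 16. HOM 10, HOM 19 and HOM 21 held 28, 5 and 8 counts, and HET 11 and HET 16, outside the comparison, held 6037 and 5987. Of its near copy Gm24187 on chromosome 13, 29, 64 and 22 counts were found in the HET libraries, against 11, 4 and 14 in the WT libraries, with overlapping CPM ranges and an adjusted p of 0.999 with edgeR. Gm23388, another near copy, had 0 counts in each HET library, against 21, 0 and 25 in WT 11, WT 12 and WT 16. Gm23935 and its 5 identical or near copies together took 0.632%, 1.61% and 0.0560% of counts in HET 9, HET 10 and HET 15, against 0.0406%, 0.00788% and 0.0212% in the WT libraries. Summed in this way the groups still did not overlap, but HET 15 lay close to WT 11. Among the pancreas libraries, Gm23935 was highest in CPM in HET 9, HET 10, HET 11 and HET 16. The same held for the ribosomal RNA gene CT010467.1, described below. Whether the counts of Gm23935 come from ribosomal RNA was not tested.

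Luc7l3 (chr11:94287890-94321988, minus strand) encodes a splicing factor related to a component of the yeast U1 particle. It had 105, 239 and 57 counts in HET 9, HET 10 and HET 15, against 0 counts in each of WT 11, WT 12 and WT 16. Its level averaged 1844 ± 1376 CPM in HET. Over the summed HET counts it was 1382 CPM, at least 153-fold that in WT, taking 3 counts over the WT group as the floor (edgeR adjusted p = 9.06e-05). All 3 HOM libraries had counts of it, 14, 35 and 15, and HET 11 and HET 16 had 393 and 692. The adjusted p stayed under 0.05 in 10 of 18 alternative settings. It was 0.279 without HET 9, 0.125 without HET 10 and 0.748 without WT 16, and also missed 0.05 with no filter (0.122), in males only (0.875), with all 5 HET libraries (0.267), with the spread shared with HOM and without HET 9 (0.302) and with a cut at 0.5% and no sex covariate (0.913).

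Gm10800 was the second most abundant gene over the 6 libraries. It had 236, 591 and 1957 counts in HET 9, HET 10 and HET 15, against 3984, 2883 and 2436 in WT 11, WT 12 and WT 16. In CPM, the HET libraries had 4767, 7568 and 12035, against 49064, 45414 and 12923 in the WT libraries. The groups did not overlap, but HET 15 and WT 16 were close to each other. The log2 fold change was −2.20 ± 0.34 (SE, edgeR adjusted p = 1.24e-05), while DESeq2 gave an adjusted p of 0.0663 and edgeR without the sex covariate 0.161. Without WT 11, WT 12 or WT 16 the edgeR adjusted p was 0.717, 0.761 and 0.921, and without HET 9 it was 0.0614. The adjusted p stayed under 0.05 in 6 of 18 alternative settings, and was 0.800 with no filter, 0.0936 with no robust estimation, 0.875 in males only, 0.99955 with all 5 HET libraries, 0.138 with the spread shared with HOM and without HET 9, and 0.913 with a cut at 0.5% and no sex covariate.

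None of the other satellite-like genes passed the test. Of the 11 in the table besides Gm10800, 10 had a count and 4 were tested, and these 4 had a log2 fold change below 0, with a median of −2.13, against −0.14 for all genes. Their summed levels overlapped, at 2525, 2574 and 5399 CPM in HET 9, HET 10 and HET 15, against 21034, 14996 and 4239 CPM in WT 11, WT 12 and WT 16. Gm21738 had 24, 45 and 185 counts in HET 9, HET 10 and HET 15, against 398, 202 and 236 in the WT libraries (log2 fold change −2.15 ± 0.72, edgeR adjusted p = 0.656). Gm10801, next to Gm10800, had 82, 127 and 533 counts, against 1005, 422 and 400 (−1.64 ± 0.54, edgeR adjusted p = 0.656). With Gm10800 included, the family took 0.729%, 1.01% and 1.74% of counts in HET 9, HET 10 and HET 15, against 7.01%, 6.04% and 1.72% in WT 11, WT 12 and WT 16. The female WT library thus lay at the level of HET 15, and the groups overlapped. HOM 10, HOM 19 and HOM 21 had 0.728%, 1.69% and 0.358%. The family was drawn up after its values had been seen and shares sequence, so its members are not independent.

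CT010467.1, a ribosomal RNA gene on chromosome 17, separated the HET libraries from each other more than from WT. It had 7363, 1050 and 120 counts in HET 9, HET 10 and HET 15, which is 14.9%, 1.34% and 0.0738% of each library. In WT 11, WT 12 and WT 16 it had 8, 58 and 52 counts, at most 0.0914%. HET 15 lay within the WT range, and the edgeR adjusted p was 0.999, against 0.00164 with DESeq2. edgeR called it higher in HET with no filter (adjusted p = 8.65e-05), with no robust estimation (0.0155) and without WT 12 (8.91e-07). In HET 11 and HET 16 it took 2.25% and 3.57%. The share of HET 9 lowers the CPM of every other gene in that library by construction, and with CT010467.1 left out of the totals 5 gene lists had shares that did not overlap between groups, as with it.

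**Figure D2:**
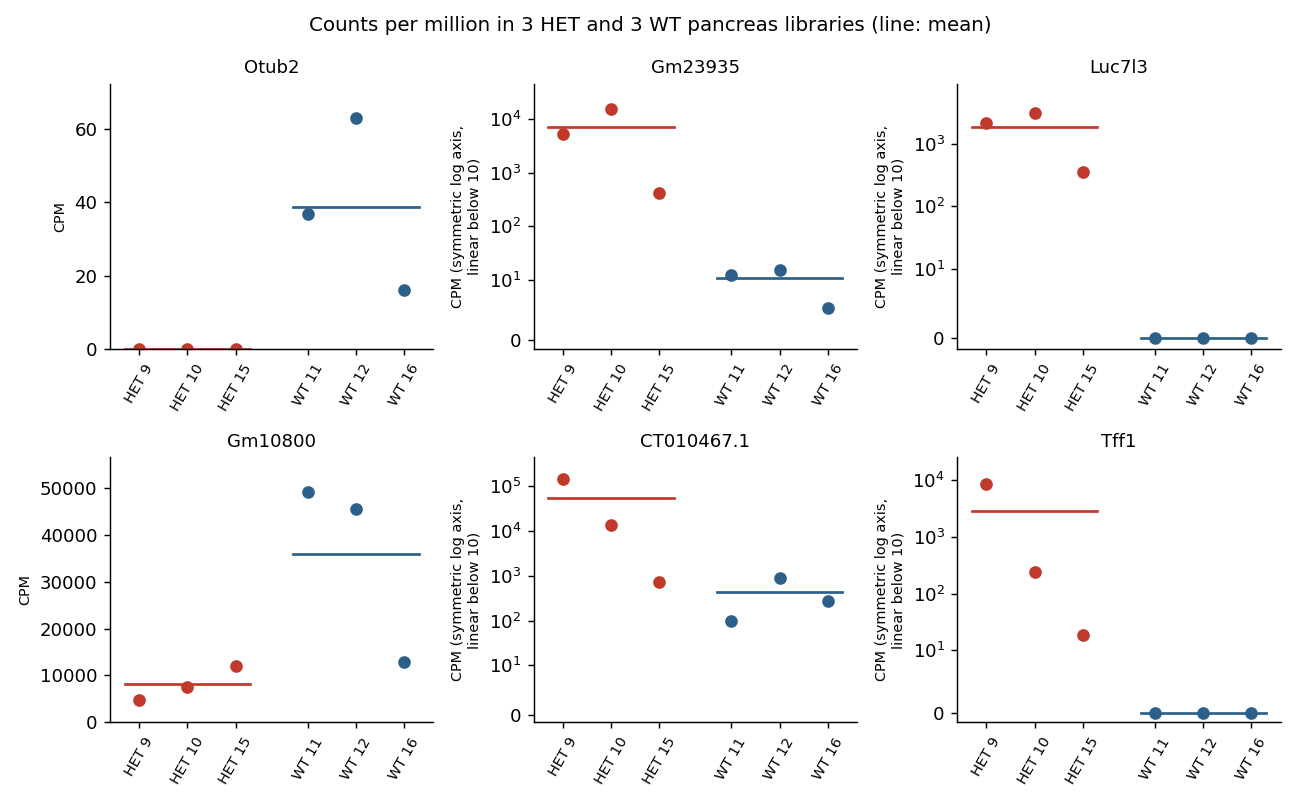
CPM of 6 genes in each HET (red) and WT (blue) library, with a line at the group mean, on linear axes for Otub2 and Gm10800 and symmetric log axes for the others. Gm23935 and Luc7l3 are far apart between groups, Gm10800 nearly meets between HET 15 and WT 16, and CT010467.1 and Tff1 are highest in HET 9, while Otub2 rests on 10 counts.

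The genes next in order of p did not pass the edgeR test. Groups of CPM that do not overlap were found for 117 of the 1671 genes with HET higher (7.00%) and for 71 with HET lower (4.25%), and all of the genes named in this and the next paragraph are among these. Wdr37, which encodes a WD-repeat protein, had 54, 72 and 148 counts in HET 9, HET 10 and HET 15, against 0, 0 and 2 in WT 11, WT 12 and WT 16. Its 3 HET libraries were close together at 974 ± 101 CPM, against 3.5 ± 6.1 CPM in WT, and its adjusted p was 0.242 with edgeR and 0.000661 with DESeq2. Pigr, the receptor that carries IgA across epithelia, had 16, 267 and 21 counts, against 1, 4 and 1 (log2 fold change 5.36 ± 1.60, edgeR adjusted p = 0.450). Spop, the substrate adaptor of a cullin ubiquitin ligase, had 90, 337 and 170 counts, against 38, 60 and 1 (3.10 ± 1.06, edgeR adjusted p = 0.688). Ralgps2, an exchange factor for Ral GTPases, had 31, 243 and 232 counts, against 21, 32 and 0. Mir99ahg and Dleu2 are non-coding host transcripts of miRNA clusters. Mir99ahg had 71, 369 and 299 counts, against 47, 67 and 10 (2.62 ± 0.87), and Dleu2 had 19, 260 and 258, against 2, 1 and 56 (4.82 ± 1.66). Both overlap other annotated transcripts, among which reads may be split. BC005624 had 51, 169 and 87 counts, against 0, 0 and 29. HET 11 and HET 16, outside the comparison, held 259 and 318 counts of Pigr, 410 and 292 of Spop and 338 and 219 of Ralgps2. The totals of HET 11 and HET 16 were 1326541 and 670588 counts. Their raw counts therefore cannot be set beside those of the shallower 6 libraries.

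Among genes lower in HET, 4 were at 0 in all 3 HET libraries. Arid3b, a DNA-binding protein of the ARID family, had 0 counts in each HET library, against 25, 26 and 59 in WT 11, WT 12 and WT 16, at least 31.9-fold lower. Its WT level was even, at 344 ± 57.3 CPM, and it had 92, 32 and 19 counts in the HOM libraries (edgeR adjusted p = 0.688). Bmp8a, a ligand of the TGF-β superfamily, had 54, 13 and 40 counts in the WT libraries and was at least 31.1-fold lower in HET. Abcb8, a mitochondrial ABC transporter, had 24, 8 and 108 there and was at least 40.6-fold lower. The transcript Unc45bos, which lies on the strand opposite to a neighbouring gene, had 47, 8 and 30 there and was at least 24.7-fold lower. Genes with counts in all 3 WT and no HET library made up 93 of the 7480 with at least 10 counts (1.24%), and no adjusted p of these 4 was under 0.688 with edgeR. Stx16, a SNARE of the trans-Golgi network, had 0, 0 and 2 counts in the HET libraries, against 37, 55 and 32 in the WT libraries. Ppp1r9a, an actin-binding partner of protein phosphatase, had 1, 0 and 0, against 25, 54 and 39. Stard9, a kinesin, had 0, 1 and 2, against 69, 26 and 34. Their edgeR adjusted p lay at 0.918 for Stx16 and 0.999 for the other pair.

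Several of the most abundant protein-coding genes were higher in HET without overlap, as were 7.00% of all genes tested, but did not pass the test. Nme4, a mitochondrial nucleoside diphosphate kinase, stood at 2681 ± 44.6 CPM in HET and 1710 ± 187 CPM in WT. Iqgap1, a scaffold of the actin cytoskeleton, stood at 2584 ± 207 CPM in HET and 1295 ± 638 CPM in WT. Tnfaip8, a regulator of cell death, stood at 3125 ± 1900 CPM in HET and 1487 ± 443 CPM in WT. Each of these 3 genes was higher in 3 of 3 HET libraries, with log2 fold changes of 0.45 to 0.90 and an edgeR adjusted p of 0.999. A pair of other abundant genes came from a single library each. Tle4, a transcriptional corepressor, had 828 counts in HET 9 and none in HET 10 or HET 15, against 4, 0 and 2 in the WT libraries. Bbip1, a BBSome subunit of the cilium, had 0, 8 and 0 counts in the HET libraries, against 0, 859 and 0 in the WT libraries. Among 2974 genes with at least 50 counts over the 6 libraries, 214 (7.20%) had at least 90% of them in 1 library, 118 of these in WT 16.

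A few genes of stomach and acinar cells, Tff1, Gkn1, Psca, Pla2g1b and Clps, were called higher in HET when the 3 HOM libraries were added to the fit to share its estimate of spread, and their counts came mostly from HET 9. That fit tested 2598 genes and called 9 (0.346%), with 8 higher (0.308%) and 1 lower (0.0385%) in HET. They were Gm23935, Luc7l3 and Gm10800 again, the predicted gene Gm6129 and these 5 genes. Tff1, a trefoil peptide of gastric mucus, had 420, 19 and 3 counts in HET 9, HET 10 and HET 15, against 0 in each WT library. Gkn1, a gastrokine, had 303, 3 and 0 counts, against 0 in each. Psca, a surface antigen of gastric epithelium, had 196, 12 and 0, against 0, 0 and 2. Pla2g1b, the pancreatic phospholipase A2, had 373, 5 and 0, against 0 in each, and Clps, which encodes colipase, had 406, 52 and 2, against 1 in each. Without HET 9 the same fit called Gm23935 alone, out of 4183 genes.

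The whole lists did not separate the groups. The 14 stomach genes in the table, 12 of which had a count, took 2.57%, 0.183% and 0.00184% of counts in HET 9, HET 10 and HET 15, against 0.00246%, 0.00315% and 0.00955% in WT 11, WT 12 and WT 16. The acinar genes took 1.58%, 0.0730% and 0.0191% in the HET libraries, against 0.154%, 0.0173% and 0.0164% in the WT libraries. The groups overlapped in both lists (exact permutation p = 0.4 for stomach and 0.5 for acinar). Of the 9 acinar genes with a count, 3 had a higher mean CPM in HET and 6 a lower one. Pnliprp1, a lipase-related protein of acinar cells, had 5, 0 and 10 counts in HET 9, HET 10 and HET 15, against 81, 10 and 1 in WT 11, WT 12 and WT 16. Nr5a2, a nuclear receptor of acinar cells, had 0, 0 and 14 counts in the HET libraries, against 31, 0 and 1 in the WT libraries. HOM 10, HOM 19 and HOM 21 had 0.511%, 1.68% and 0.669% in stomach genes, and HET 11 and HET 16 had 23.1% and 19.3%. Pgc, the gene of pepsinogen C, had 496, 121 and 0 counts in HET 9, HET 10 and HET 15, against 2, 2 and 17 in the WT libraries. Among duct genes, Krt19, an epithelial keratin, had 142 counts in HET 9 and 0 in HET 10 and HET 15, against 0, 2 and 0. The part of stomach RNA in other differences of HET 9 was not tested.

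In all, 39 gene lists and families were compared by their share of counts. The groups did not overlap for 1 with HET higher (2.56%) and for 4 with HET lower (10.3%). Each of these had an exact permutation p of 0.1 and an adjusted p of 0.780. A p of 0.1 is the smallest that this number of libraries allows, so no list could have passed the test. The lack of calls among the lists therefore decides nothing. The OTU-family list, which overlapped without Otub2, is among the 4. The nuclear genes of the respiratory chain and ATP synthase were the list with higher shares, at 0.812%, 0.234% and 0.174% in HET 9, HET 10 and HET 15, against 0.0160%, 0.0882% and 0.118% in WT 11, WT 12 and WT 16. HET 9 stood apart from the other two HET libraries. Of its 74 genes 53 had a count and 3 were tested, 2 of them above 0. Ndufa2, a subunit of complex I, had 47, 68 and 74 counts, against 0, 7 and 10 (log2 fold change 3.56 ± 1.84, edgeR adjusted p = 0.999). HET 11 and HET 16 had 3.76% and 3.85% in this list.

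The mitochondrial DNA encodes other subunits of the same chain, and also ribosomal and transfer RNAs. Its transcripts had a lower mean share in HET, opposite to the nuclear list. All 6 tested members, among them mt-Rnr1 and the transfer RNA mt-Tw, had a log2 fold change below 0, with a median of −2.02. Of all genes tested 53.0% were below 0, with a median of −0.14. The summed shares of the list overlapped, at 0.109%, 0.110% and 0.224% in the HET libraries and 0.814%, 0.342% and 0.177% in the WT libraries (exact permutation p = 0.2). mt-Nd5, a complex I subunit, had 4, 3 and 41 counts, against 273, 36 and 106 (−3.62 ± 1.20, edgeR adjusted p = 0.656). mt-Rnr1, the small ribosomal RNA of mitochondria, had 1, 3 and 8 counts, against 46, 26 and 29 (edgeR adjusted p = 0.999). For both genes every HET library lay below every WT library, as for 4.25% of all genes tested. The other tested members, mt-Cytb, mt-Nd1, mt-Nd2 and mt-Tw, overlapped between the groups.

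Zinc finger genes of the Zfp series, mostly DNA-binding factors, had lower shares in HET. They took 0.481%, 0.649% and 0.581% of counts in HET 9, HET 10 and HET 15, against 1.06%, 0.789% and 0.970% in WT 11, WT 12 and WT 16. The group means were 0.570 ± 0.0847% in HET and 0.941 ± 0.139% in WT. Of the 15 tested members 12 were below 0 and 3 above, where 53.0% of all genes tested were below 0. Their median log2 fold change was −1.15, against −0.14 for all genes, and none passed the test. Groups that did not overlap, with HET lower, were found for 2 of the 15, Zfp536 and Zfp280d, and for 4.25% of all genes tested. These 2 had the lowest log2 fold changes of the 15. Zfp536, a neural repressor, had 0, 1 and 50 counts, against 46, 20 and 146 (−2.89, edgeR adjusted p = 0.999). Zfp280d had 0, 0 and 15 counts, against 51, 12 and 48 (−4.01, edgeR adjusted p = 0.999). HOM 10, HOM 19 and HOM 21 had 0.769%, 0.823% and 0.807%, between the means of the HET and WT groups.

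**Figure D3:**
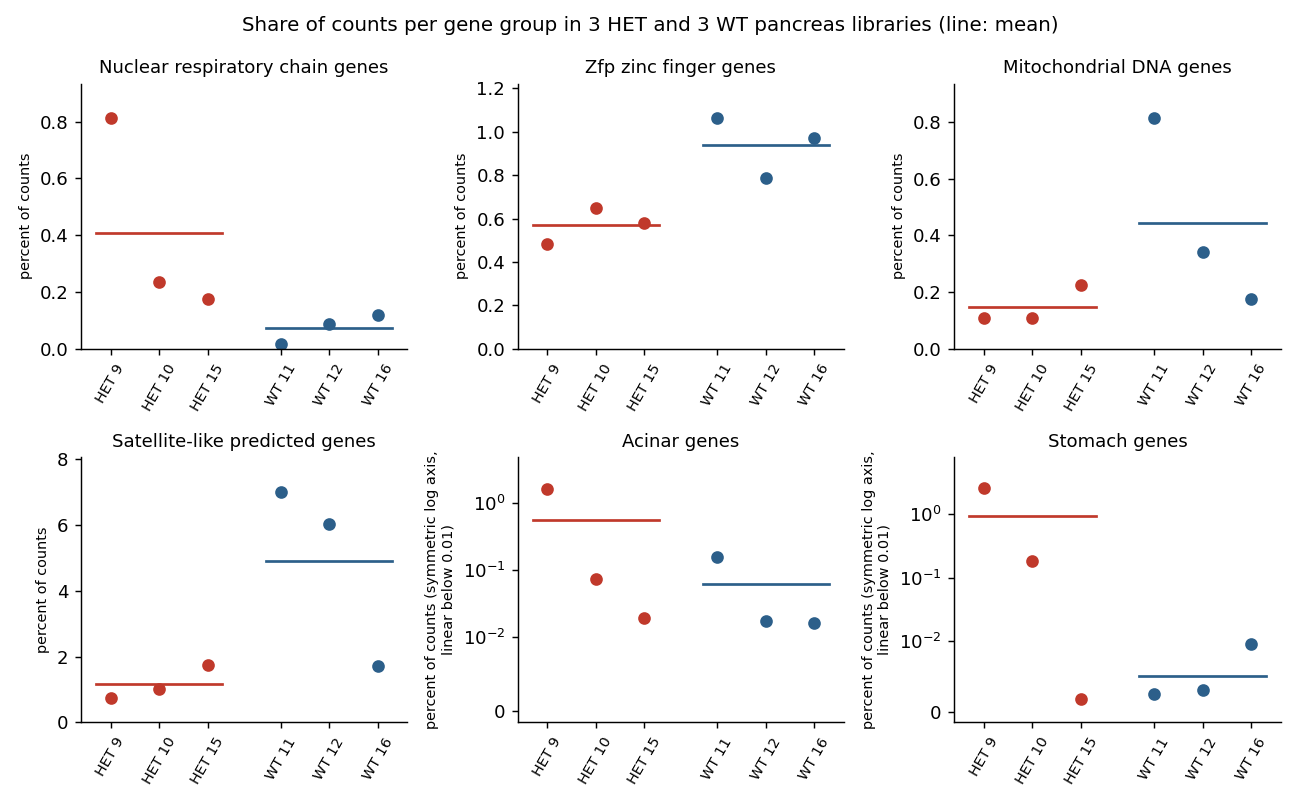
Percent of counts in 6 gene groups for each HET (red) and WT (blue) library, with a line at the group mean; the acinar and stomach panels have symmetric log axes. The groups do not overlap for nuclear respiratory chain genes (HET higher) and Zfp genes (HET lower), and overlap for mitochondrial DNA, satellite-like, acinar and stomach genes, the last with HET 9 at 2.57%.

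Markers of supporting cells were sparse. Endothelial genes took 0.0404%, 0.0794% and 0.0523% in the HET libraries, against 0.0936%, 0.0961% and 0.103% in the WT libraries, and 6 of 10 had a count. Vwf, a clotting protein stored in vessel walls, made up most of them, with 20, 1 and 85 counts, against 25, 60 and 157, while Kdr, a VEGF receptor, had 0 in each HET library, against 24, 0 and 32. Tie1, a receptor of endothelial cells, had 0, 61 and 0 counts, against 24, 0 and 0. Stellate and fibroblast genes took 0.00202%, 0.0166% and 0.0209%, against 0.0505%, 0.0252% and 0.0355%. Sparc, a matrix protein, had 0, 0 and 5 counts, against 38, 4 and 22. Both lists were among the 4 with HET lower, on 48 HET and 124 WT counts in the fibroblast list and 167 and 331 in the endothelial list. C1qa, a complement subunit of macrophages, had 3, 0 and 0 counts, against 83, 13 and 28 (edgeR adjusted p = 0.999), yet the macrophage list overlapped, at 0.0424%, 0.0448% and 0.0172% in HET libraries and 0.233%, 0.106% and 0.0377% in WT libraries.

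Islet and signalling genes overlapped between the groups, with Slc7a11 as an exception among those named here. Ins1, a mouse insulin gene, had 0, 59 and 0 counts in HET 9, HET 10 and HET 15, against 0, 0 and 79 in WT 11, WT 12 and WT 16. Scg3, a granule protein, had 0, 56 and 0, against 50, 0 and 31. Pax6, an islet transcription factor, was even, at 1013 ± 713 CPM in HET and 1038 ± 770 CPM in WT (log2 fold change −0.23 ± 0.95, edgeR adjusted p = 0.999). Genes of NF-κB and TRAF signalling took 0.0364%, 0.114% and 0.203%, against 0.0185%, 0.224% and 0.0716% (exact permutation p = 0.9). Map3k14, the kinase of the non-canonical pathway, ranged over 1, 44 and 267 counts, against 1, 113 and 30. Proteasome genes stood at 0.272 ± 0.011% in HET and 0.260 ± 0.150% in WT, and Slc7a11, the cystine transporter, had 43, 20 and 35 counts, against 2, 4 and 0 (3.71 ± 2.62, edgeR adjusted p = 0.999). The share of cytosolic ribosomal protein genes was 0.648%, 0.659% and 0.703% in HET libraries, against 0.688%, 0.211% and 0.355% in WT libraries.

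By protein-coding share and genomic span the 6 libraries resembled each other more than they resembled HET 11 and HET 16. The share of protein-coding genes was 60.1%, 66.1% and 65.0% in HET 9, HET 10 and HET 15, against 67.1%, 68.0% and 66.9% in the WT libraries, while HET 11 and HET 16 had 95.05% and 91.7%. Of the protein-coding counts, 39.2%, 42.2% and 42.8% lay in the 5384 genes with the longest genomic span (45.6 kb or more) in the HET libraries, against 37.7%, 38.0% and 41.1% in the WT libraries. In HET 11 and HET 16 those genes took 7.20% and 9.58%. Gene by gene the libraries were less alike. Spearman's rho was computed across 2974 genes, which are not independent replicates. They were chosen for at least 50 counts over the 6 libraries. Values among the 6 and values with HOM, HET 11 or HET 16 are therefore not like for like. For the 3 HET libraries compared, its median was 0.323 with each other and 0.343 with the HOM libraries. It was 0.267 with HET 11 and HET 16 and 0.187 with the WT libraries. Among the WT libraries the median was 0.125. These values describe sparse counts of unequal depth. By other gene types the 6 libraries were not alike. HET 9 and HET 10 held 15.0% and 1.60% of counts in ribosomal RNA genes, against 0.214% in HET 15 and at most 0.137% in WT. HET 11 and HET 16 held 2.25% and 3.58% in these genes. In miRNA genes HET 9 and HET 10 held 1.08% and 1.88%, against 0.403% in HET 15 and at most 0.435% in WT. HET 11 and HET 16 held 0.523% and 1.09% there.

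**Figure D4:**
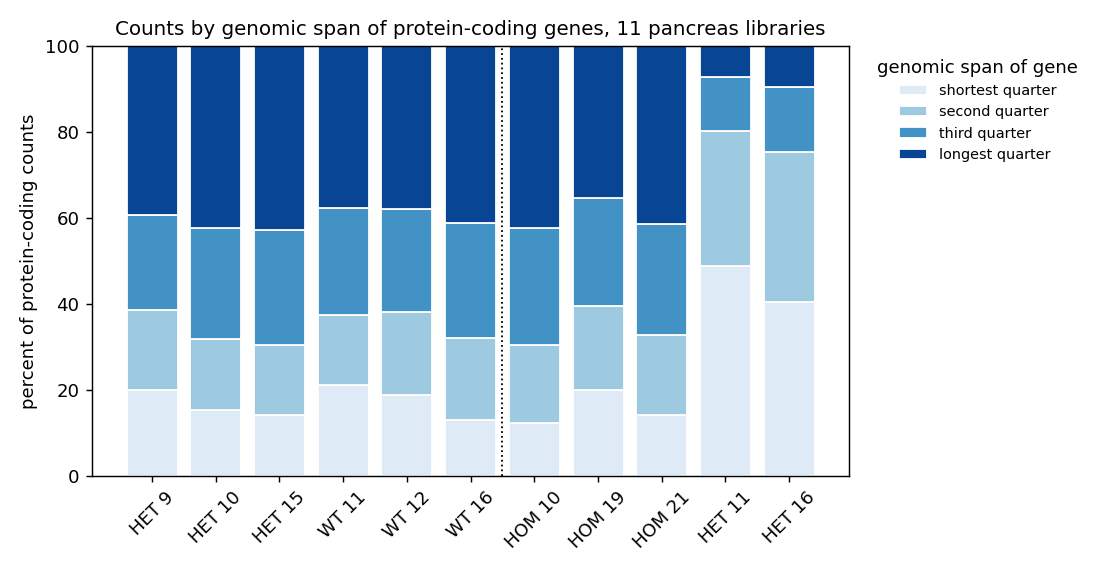
Percent of protein-coding counts (vertical axis) in 4 classes of protein-coding genes of equal size, ordered by genomic span, for the 6 libraries compared (left of the dotted line) and the other 5 pancreas libraries. The class of longest genes takes 37.7% to 42.8% in the 6 libraries, and 7.20% and 9.58% in HET 11 and HET 16.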

How the data were processed

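Per the labels' protocols, RNA was extracted with TRI reagent and libraries were made by a bulk MARS-seq protocol. The submitters' processing notes name cutadapt, STAR and the build mm10. Versions, the counting tool and how it treated strand and molecular barcodes are not given in the sources used here. For 55291 symbols the deposited pancreas table holds whole-number counts per gene, which the authors call corrected without saying for what. Of these symbols 53292 matched GENCODE M21, used for positions, types and transcript sequences.

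The members, gene lists and tests were chosen with earlier results of these data known. Groups, replicate numbers and sex came from the labels. No 2 libraries held identical values. Genes were tested with edgeR 4.0.16 in R 4.3.3 (filterByExpr with a minimum count of 10, TMM factors of 0.849 to 1.12, robust quasi-likelihood F test, sex and genotype, 3 HET and 3 WT libraries), with Benjamini-Hochberg adjustment over all genes tested. Errors of log2 fold changes are standard errors from the F statistic. Shares of 39 lists and families, and Otub2, were compared by two-sided exact permutation tests over 6 libraries (20 splits, SciPy 1.17.1), adjusted over the lists. Against a group at 0, folds use counts summed over each group and a floor of 3 counts. Intervals and floors cover counting error only. Satellite-like genes are those sharing at least 10% of 16-base words with Gm10800. Named genes were Otub1, Otub2, the 10 with the highest mean CPM, those called, the 8 with the smallest p in a direction with fewer than 5 calls (ranked without predicted genes and antigen receptor segments), those called with the spread shared with HOM, and genes among the 4 members with most counts of each list; Zfp and mitochondrial examples, Gm21738 and Gm23388 were chosen after their values were seen. A gene that the rule names is not reported here. Alternatives were DESeq2 1.42.0, other scalings, filters, covariates and library sets. The edgeR script was tested on simulated data.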

Additional observations from a re-analysis of the deposited data

Results flagged for a closer look

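In 3 of the 39 lists and families both male HET libraries lay below both male WT libraries, while the female HET library (HET 9) lay above the female WT library (WT 16). The difference between the sexes was not tested, and each sex gave at most 2 libraries a genotype. The female difference, HET 9 minus WT 16, was 0.00476 percentage points for macrophage genes, 0.0121 for taste receptors and 0.0218 for cytochrome P450 genes. All 3 rest on few counts. Summed over each group, HET and WT held 84 and 327 counts of macrophage genes, 7 and 10 of taste receptors and 133 and 169 of cytochrome P450 genes. The macrophage difference is smaller than 3 counts would make in HET 9.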

How the results depend on the processing

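The count of called genes moved from 3 to 12 with DESeq2 (972 genes had no adjusted p), to 9 with a filter at a mean of 100 CPM, to 9 with the spread shared with HOM, and to 1 with that spread and without HET 9, an alternative chosen after seeing the data. It was 0 of 5294 genes with a cut at 0.5% and no sex covariate, also chosen after seeing the data, where 71 had an unadjusted p under 0.05 (lowest edgeR adjusted p 0.147); with sex in the model no residual degrees of freedom remain there, and the lone HET library is assumed to vary like the WT ones. It was 0 in males only, where 101 genes had an unadjusted p under 0.05 (lowest edgeR adjusted p 0.875), and 0 with all 5 HET libraries, where 213 did (0.236). Leaving out each library gave 0 to 7 calls: 1 without HET 9, 3 without HET 10, 7 without HET 15, 6 without WT 11, 7 without WT 12 and 0 without WT 16. With no filter 14559 genes were tested and 2 called. With scaling by total counts the median of all log2 fold changes was 0.06, against −0.14, with the same 3 calls. Non-overlapping lists numbered 5, against 10 in males only, 3 with all 5 HET libraries, and 5 to 13 with each library left out (13 without HET 15, 12 without WT 12, 9 without WT 16, 8 without WT 11). Groups of fewer libraries separate more easily, so these counts of lists are not like for like. With all 5 HET libraries the difference of HET minus WT changed sign for stellate and fibroblast genes (0.00350 percentage points) and OTU deubiquitinases (0.0138). The Otub2 difference was −38.3 CPM with all 5 HET libraries (exact permutation p = 0.0357) and −49.98 to −26.4 CPM with each library left out. Of 320 values of 18 single genes under the alternatives, 292 kept their side of the threshold, 24 lost and 4 gained a call. All 24 losses fell on the 3 called genes, whose call held in 6 (Gm10800), 14 (Gm23935) and 10 (Luc7l3) of 18 alternatives. Most of the 292 belong to genes not called in the main fit, and a missing DESeq2 adjusted p counted as not called. The direction changed for 0 values. That carries little weight, because the genes were picked by small p and some were at 0 in a whole group. The causes were not tested. A cut at 0.05% keeps the same 6 libraries, so it is not counted among the alternatives of single genes. No paired analysis was possible because HET 9, 10 and 15 and WT 11, 12 and 16 share no replicate number. Depth limits every gene: 3 counts make 15.9 to 60.6 CPM in a single library.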
